A study of Homo sapiens with 6 samples.

Results

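The cyclin-dependent kinase (CDK) inhibitors of the CIP/KIP and INK4 families were followed in 12Z cells, with and without the adipokine chemerin. The genes were taken from the deposited tables by symbol. They are CDKN1A, CDKN1B and CDKN1C of the CIP/KIP family and CDKN2A, CDKN2B, CDKN2C and CDKN2D of the INK4 family, or 7 of the 16279 genes listed. All 7 had enough counts to be tested. 12Z is an established human cell line of endometriotic epithelial origin. The untreated cells are called Control (NC in the labels, n = 3 libraries), and the treated cells received 10 ng/mL rhChem157S for 48 h (rhChemerin in the labels, n = 3 libraries). rhChem157S is a recombinant form of active human chemerin. Both groups come from a single line. As background that the labels do not give, 12Z was immortalised with the SV40 T antigen, a viral protein that binds the retinoblastoma protein and p53, and this applies to both groups. The labels call the libraries biological replicates without saying what separates them, and the p-values then measure the spread between these libraries, which may be technical.

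The libraries held 35430881 to 38341643 counts each, so that 1 count was 0.0261 to 0.0282 CPM (counts scaled to a library total of 1000000). Of the 16279 genes, 13311 passed the filter on low counts. rhChem157S replicate 3 had the lowest scaling factor (0.898, against 0.973 to 1.05 in the others), and values without it are given where the log2 fold change of a named pathway gene moved by over 1.5 times. Of the epithelial markers of the label, KRT8, KRT18 and KRT19 were abundant, but EPCAM and CDH1 averaged 0.599 and 0.310 FPKM (CPM per kilobase of gene) in Control cells and 0.196 and 0.129 FPKM with rhChem157S. The 6 stromal markers were at 1 FPKM or above in every library, with sums of 1543 to 2021 FPKM in Control and 1084 to 2144 FPKM in treated libraries. Endothelial markers summed to 1.61 to 2.01 and 0.991 to 1.41 FPKM. Of the immune markers PTPRC was below 0.1 FPKM in every library, while the list's sum was 122 to 172 FPKM in Control and 92.9 to 136 FPKM in treated libraries, nearly all of it CD14 and CD68. CD14, a marker of monocytes, had 51.5, 41.1 and 36.9 FPKM in Control and 21.2, 15.2 and 6.64 FPKM in treated libraries, lower without overlap as were CDKN1A and CDKN2B (log2 fold change -1.49, adjusted p = 0.1003 with edgeR and 4.22e-04 with DESeq2). The immune markers CD68 and LYZ overlapped between the groups, with log2 fold changes of 0.11 and -0.03 (edgeR, LYZ at 7 to 23 counts). The part of these markers in the results below was not tested.

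CDKs drive the cell cycle together with cyclins, and their inhibitors hold it back. INK4 proteins bind CDK4 and CDK6 and keep D-type cyclins from activating them, whereas CIP/KIP proteins bind whole cyclin-CDK complexes and mainly restrain CDK2. Both families thereby keep the retinoblastoma protein active against E2F transcription factors. CDKN1A (p21) is the classical target of p53, and CDKN2B (p15) is known for its induction by TGF-beta.

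CDKN1A lies on chromosome 6 (GENCODE release 29, GRCh38, 36676460 to 36687339, plus strand). CDKN2A and CDKN2B are neighbours on the minus strand of chromosome 9, at 21967753 to 21995301 and 22002903 to 22009363. The other members lie on chromosome 12 (CDKN1B, 12715058 to 12722371), chromosome 11 (CDKN1C, 2883213 to 2885773), chromosome 1 (CDKN2C, 50960745 to 50974633) and chromosome 19 (CDKN2D, 10566462 to 10569059). The promoter windows shown run from 250 bases before to 50 bases after an annotated start, 5′ to 3′ on the gene's strand, with sequence from RefSeq (GRCh38.p14). They are those of CDKN1A and CDKN2B, the 2 members whose groups separated, and the p16INK4A start of CDKN2A, the adjacent gene whose groups did not. Capitals mark the GC box GGGCGG, the core that SP1 recognises, or its complement CCGCCC.
CDKN1A, chr6:36678464-36678763, plus strand: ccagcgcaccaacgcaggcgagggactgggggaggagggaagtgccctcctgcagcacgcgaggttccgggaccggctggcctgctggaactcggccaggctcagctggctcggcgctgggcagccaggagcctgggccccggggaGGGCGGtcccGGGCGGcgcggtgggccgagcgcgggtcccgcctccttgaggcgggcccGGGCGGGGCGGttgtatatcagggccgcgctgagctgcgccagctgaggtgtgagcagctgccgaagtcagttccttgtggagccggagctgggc
CDKN2B, chr9:22009256-22009555, minus strand: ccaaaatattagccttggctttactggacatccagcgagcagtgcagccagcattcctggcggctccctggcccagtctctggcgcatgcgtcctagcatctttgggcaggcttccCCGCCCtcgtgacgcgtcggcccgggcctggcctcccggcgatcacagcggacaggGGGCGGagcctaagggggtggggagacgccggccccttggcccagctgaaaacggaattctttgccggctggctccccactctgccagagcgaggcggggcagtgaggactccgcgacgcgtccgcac
CDKN2A, p16INK4A start, chr9:21974808-21975107, minus strand: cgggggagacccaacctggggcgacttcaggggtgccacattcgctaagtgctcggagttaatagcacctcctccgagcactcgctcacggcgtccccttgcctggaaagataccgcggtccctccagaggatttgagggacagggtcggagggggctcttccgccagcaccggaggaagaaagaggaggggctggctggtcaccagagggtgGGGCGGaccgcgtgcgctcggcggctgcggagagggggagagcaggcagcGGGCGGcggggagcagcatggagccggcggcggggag

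The CDKN1A window held 4 matches, of which 2 overlap by a base, and 9.06% of the 35116 windows in the table held at least as many. CDKN2B and the p16INK4A start of CDKN2A held 2 matches each, a number reached by 26.7% of windows, and the GC box was present in 45% of all windows. Of the 7 members, 6 had a window in the table. Of members whose groups overlapped, CDKN2C had windows with 0, 6 and 1 matches, CDKN2D 1 with 3 and CDKN1B 1 with 1. At least 6 matches were found in 2.86% of windows and at least 3 in 15.8%. The other start of CDKN2A, that of p14ARF, held 0 matches, and the tables count the transcripts of both starts together. These matches describe the letters of each window and are no evidence of binding.

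CDKN2A and CDKN2B are near relatives, and reads could in principle be shared between them. No run of 150 bases, the length of a read, was common to the annotated transcripts of both genes. The longest identical run was 80 bases, and a local alignment of 361 bases was 86.7% identical. Whether shorter or mismatched reads were assigned to the wrong gene was not tested. The CDKN2A row holds the transcripts of p16INK4A and of p14ARF, a different protein that protects p53 from MDM2, and they cannot be told apart in these tables. A non-coding gene on the opposite strand, not analysed here, shares 341 of the 4329 exon bases of CDKN2A and 0 of those of CDKN2B. Another shares 146 of the 3050 exon bases of CDKN1A. The strand setting of the counting was not given in the sources used here.

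CDKN1A and CDKN2B were lower with rhChem157S, their 3 treated libraries all lying below their 3 Control libraries. Mean FPKM went from 245 to 101 for CDKN1A and from 14.0 to 6.15 for CDKN2B. The remaining 5 members overlapped between the groups. Here and below, overlap was judged on log2 CPM after scaling. With edgeR's quasi-likelihood test and Benjamini-Hochberg adjustment over 13311 genes, 0 of 7 members passed an adjusted p of 0.05, where 0.0301% of all genes did, in both directions. Without adjustment 2 of 7 had p under 0.05 and were lower, against 11.4% of all genes. DESeq2, the tool used by the study's authors, called the same 2 members lower, against 5.47% of all genes, and 0 members higher, against 3.9%. Both also had a log2 fold change under -1 with DESeq2, as had 2.26% of all genes. Of the 7 members 2 had groups that did not overlap with the treated libraries lower, against 16% of all genes, and 0 with the treated libraries higher, against 16.5%. In bulk RNA a lower level per cell and fewer expressing cells cannot be told apart.

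**Figure D1:**
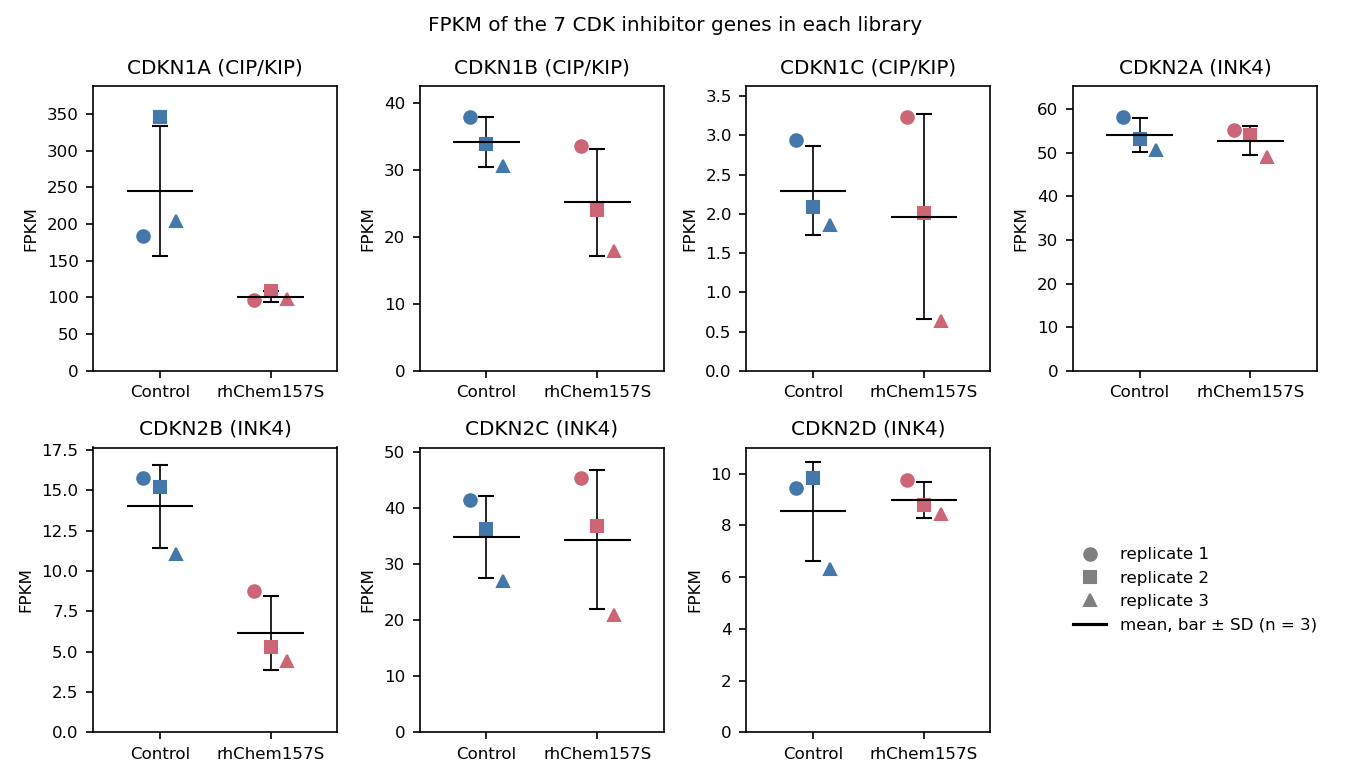
FPKM of each CDK inhibitor gene (vertical axes, linear from 0, each with its own scale) in the Control (blue) and rhChem157S (red) libraries, with symbols for the replicate number, the mean as a line and the SD as a bar (n = 3). CDKN1A and CDKN2B are separated between the groups, at 183 or more against 109 or less and at 11.1 or more against 8.75 or less, and the other 5 genes overlap.

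In the CIP/KIP family, CDKN1A encodes p21, which binds and inhibits cyclin-CDK complexes in cells arrested by p53. Its FPKM was 183, 346 and 204 in Control replicates 1 to 3 and 96.0, 109 and 98.4 in rhChem157S replicates 1 to 3. The treated libraries lay within a narrow range, all below the Control libraries, whereas Control replicate 2 stood well above the other Control libraries. The means were 245 ± 88.6 and 101 ± 6.99 FPKM (SD, n = 3 each), with 9997 to 34566 counts in each library. edgeR gave a log2 fold change of -1.14 (standard error, SE, 0.23, 95% interval -1.68 to -0.60, adjusted p = 0.0774), and 3.96% of all genes had a lower one. With DESeq2 the adjusted p was 8.96e-05. Without Control replicate 2 the log2 fold change was -0.81 (adjusted p = 0.359 with edgeR and 2.14e-05 with DESeq2). Without rhChem157S replicate 3 it was -1.17.

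CDKN1B encodes p27, an inhibitor of cyclin E-CDK2 that is controlled largely through its degradation. Its FPKM was 37.9, 33.8 and 30.6 in Control and 33.5, 23.9 and 17.8 in treated libraries. The treated range began below the Control range and reached into it, rhChem157S replicate 1 lying beside Control replicate 2. That gave a log2 fold change of -0.33 (SE 0.19, 95% interval -0.77 to 0.12, adjusted p = 0.337, edgeR). It was -0.56 without rhChem157S replicate 1 (adjusted p = 0.0610 with edgeR and, as -0.55, 0.00896 with DESeq2) and -0.17 without rhChem157S replicate 3, so that the size of this difference rested on single libraries.

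CDKN1C encodes p57, the product of an imprinted gene. It was the least abundant member, with 46 to 241 counts per library. Its FPKM was 2.94, 2.09 and 1.86 in Control and 3.24, 2.02 and 0.634 in treated libraries. rhChem157S replicate 1 was the highest and rhChem157S replicate 3 the lowest of all 6. Its log2 fold change of -0.13 had an SE of 0.50 and an interval from -1.30 to 1.05 (adjusted p = 0.895, edgeR). Without rhChem157S replicate 3 it was 0.27. Log2 fold changes of 1 and of -1 both lie inside this interval.

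In the INK4 family, CDKN2A was the most abundant gene, with FPKM of 58.3, 53.2 and 50.6 in Control and 55.3, 54.1 and 49.0 in treated libraries. The groups overlapped throughout, and the means were 54.1 ± 3.90 and 52.8 ± 3.36 FPKM (SD, n = 3 each). edgeR gave a log2 fold change of 0.09 (SE 0.09, 95% interval -0.11 to 0.29, adjusted p = 0.525, edgeR). Its sign followed the scaling, being -0.03 with library size only. Over all 6 libraries CDKN2A spanned 0.22 on the log2 CPM scale, the narrowest range among the members, against 1.77 for CDKN1A and 1.61 for CDKN2B.

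CDKN2B, next to CDKN2A on the same strand, encodes p15. Its FPKM was 15.8, 15.2 and 11.1 in Control and 8.75, 5.30 and 4.40 in treated libraries. All treated libraries lay below all Control libraries, and rhChem157S replicate 1 was the closest to them. The means were 14.0 ± 2.58 and 6.15 ± 2.30 FPKM (SD, n = 3 each), with 656 to 2231 counts in each library. This was a log2 fold change of -1.07 (SE 0.24, 95% interval -1.64 to -0.51, adjusted p = 0.0948, edgeR), with 4.57% of all genes lower, and DESeq2 gave an adjusted p of 9.56e-04. Without rhChem157S replicate 1 it was -1.38 and passed the test (adjusted p = 0.0266, edgeR), as did 6.24% of all genes in that setting. Without rhChem157S replicate 3 it was -0.92 (adjusted p = 0.0714, edgeR).

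CDKN2C encodes p18, and CDKN2D encodes p19, both INK4 inhibitors of CDK4 and CDK6. The FPKM of CDKN2C was 41.4, 36.3 and 27.0 in Control and 45.4, 36.9 and 20.9 in treated libraries. The treated libraries held both the highest and the lowest value. The log2 fold change was 0.09 (SE 0.26, 95% interval -0.51 to 0.69, adjusted p = 0.851, edgeR). Library size only gave -0.02, leaving out rhChem157S replicate 1 gave -0.13 and leaving out rhChem157S replicate 3 gave 0.32. CDKN2D had FPKM of 9.47, 9.83 and 6.33 in Control and 9.77, 8.80 and 8.43 in treated libraries. Control replicate 3 was the lowest of the 6 and the others lay close together. The log2 fold change of CDKN2D was 0.20 (SE 0.19, 95% interval -0.24 to 0.64, adjusted p = 0.532, edgeR), and 0.03 without Control replicate 3.

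**Figure D2:**
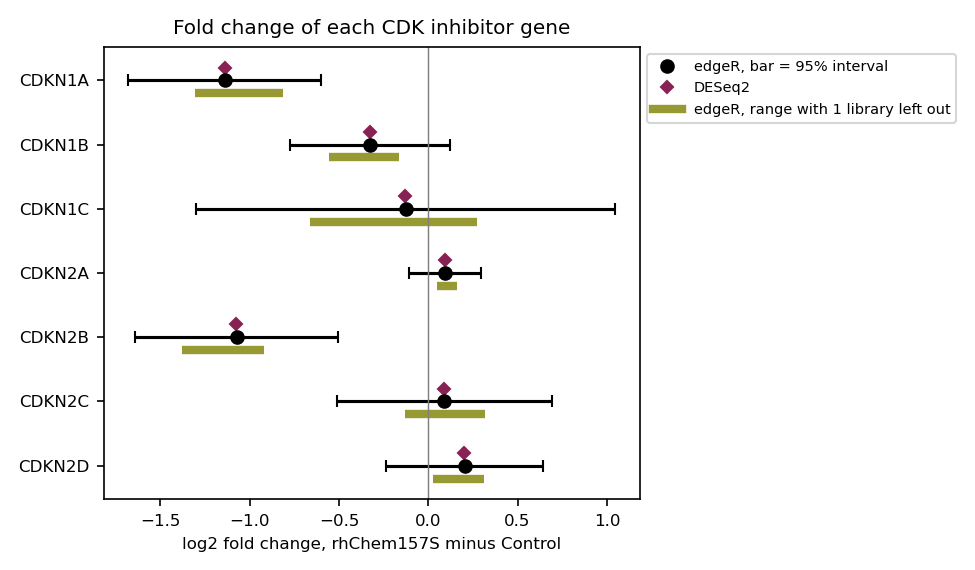
Log2 fold change (horizontal axis, rhChem157S minus Control) of each member from edgeR with its 95% interval (black), from DESeq2 (diamonds) and, as a band, the range of the edgeR value when single libraries are left out. The intervals of CDKN1A (-1.68 to -0.60) and CDKN2B (-1.64 to -0.51) lie below 0, and the other 5 include 0.

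FPKM are per length, so that levels can be set roughly side by side between genes. The length was a single value per gene, from 1425 bases for CDKN2D to 4626 for CDKN2A. Expressed transcripts may be shorter than this length, which would understate a gene's level and its share of a sum. In Control libraries the order of mean FPKM was CDKN1A, CDKN2A, CDKN2C, CDKN1B, CDKN2B, CDKN2D and CDKN1C. The ranges of CDKN2C and CDKN1B overlapped, and the other neighbours in this order did not. In treated libraries the order was the same except that CDKN2D stood above CDKN2B, with overlapping ranges, and CDKN2C and CDKN1B overlapped again. CDKN2B exceeded CDKN2D in each of the 3 Control libraries, and CDKN2D exceeded CDKN2B in each of the 3 treated libraries. This is a description of levels and was not tested.

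CDKN1A made up most of the CIP/KIP messages. The family's summed FPKM was 224, 382 and 237 in Control and 133, 135 and 117 in treated libraries, with no overlap. CDKN1A held 81.8%, 90.6% and 86.3% of the sum in Control and 72.3%, 80.8% and 84.2% in treated libraries, where the ranges overlapped. The ratio of the CIP/KIP sum to CDK2, the kinase these proteins mainly restrain, was 3.66, 6.31 and 3.90 in Control and 2.20, 2.13 and 2.35 in treated libraries, without overlap. CDK2 itself had a log2 fold change of 0.05, or 0.11 without rhChem157S replicate 3. These sums contain CDKN1A, whose difference is given above, and add no independent evidence.

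The INK4 sum was 125, 115 and 95.01 FPKM in Control and 119, 105 and 82.7 FPKM in treated libraries, and the ranges overlapped. CDKN2B held 12.6%, 13.3% and 11.6% of it in Control and 7.35%, 5.04% and 5.33% in treated libraries. CDKN2A held 46.4% to 53.3% of it in Control and 46.4% to 59.2% in treated libraries. The shares of CDKN2B did not overlap and those of CDKN2A did. The CDKN2B shares contain its difference given above and add no independent evidence. Relative to CDK4 and CDK6 together, the INK4 sum was 1.14, 1.09 and 0.996 in Control and 1.01, 1.06 and 0.786 in treated libraries, and these ratios overlapped.

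**Figure D3:**
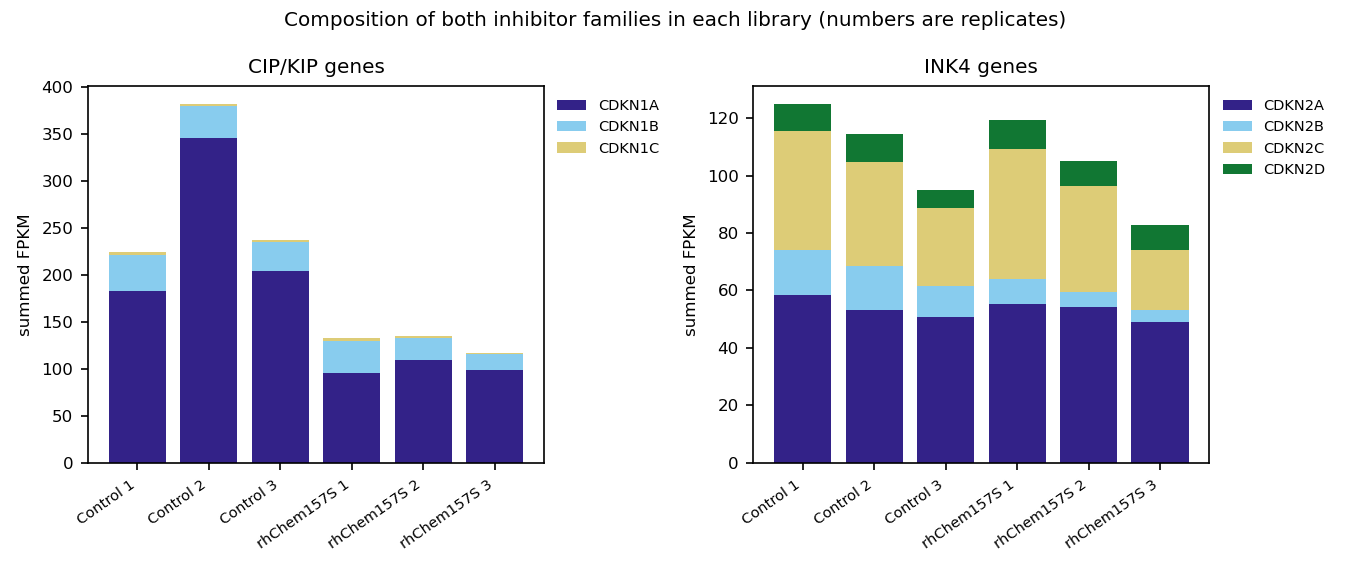
Summed FPKM (vertical axes, linear from 0) of the CIP/KIP genes (left) and of the INK4 genes (right) in each of the 6 libraries, with the share of each gene as a coloured segment. The CIP/KIP sum is 224 to 382 in Control and 117 to 135 in rhChem157S libraries, and the INK4 sums overlap, at 95.01 to 125 and 82.7 to 119.

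Ratios within a library do not depend on its scaling. The FPKM of CDKN2B relative to its neighbour CDKN2A was 0.270, 0.286 and 0.219 in Control and 0.158, 0.0979 and 0.0899 in treated libraries. The groups did not overlap, with a log2 difference of -1.20 (p = 0.1 in an exact permutation test, two-sided, which 3 libraries against 3 cannot go below, and 0.2 after adjustment over both ratios). The ratio of CDKN1A to CDKN1B was 4.84, 10.3 and 6.69 in Control and 2.86, 4.56 and 5.52 in treated libraries. Here rhChem157S replicate 3 exceeded Control replicate 1, so that the groups overlapped, with a log2 difference of -0.73 (exact two-sided permutation test, p = 0.2, adjusted 0.2). That test cannot reach p under 0.05 with 3 libraries against 3. Both ratios contain CDKN1A or CDKN2B, whose differences are given above and were known beforehand, and add no independent evidence.

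Around the inhibitors, the genes of the pathway were followed in lists of their targets, regulators and degradation machinery. edgeR called 0 genes of these lists at an adjusted p of 0.05, and DESeq2 called 14 of the 84 tested, against 9.38% of all genes. At an unadjusted p under 0.05, 16 were lower and 11 higher, against 11.4% of all genes in each direction. Without rhChem157S replicate 1 edgeR called 6 of these genes and without rhChem157S replicate 3 it called 4, against 6.24% and 3.07% of all genes, with CCNA2, SESN2 and ZMAT3 in both counts (adjusted p = 0.0458 and 0.0320, 0.0266 and 0.0258, and 0.0402 and 0.0333). MYC was called without rhChem157S replicate 1 (adjusted p = 0.0455, edgeR), and CDC20 without rhChem157S replicate 3 (adjusted p = 0.0474 with edgeR). Among all tested genes 6425 were lower and 6886 higher, and the median log2 fold change was 0.01. With library size only this median was -0.12, so that directions in lists with a smaller median hold relative to that shift.

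Of the INK4 targets, CDK4, CDK6 and the D-type cyclins, 4 of 5 were tested, 1 lower and 3 higher, with a median log2 fold change of 0.10 (-0.03 with library size only) and 0 called by DESeq2. CCND2 was not tested, with at most 6 counts in a library. Cyclin D1 (CCND1) had 0.266, 0.411 and 1.06 FPKM in Control and 0.271, 1.24 and 6.87 FPKM in treated libraries. A single treated library, rhChem157S replicate 3, was far above the rest, and rhChem157S replicate 1 lay among the Control libraries. CCND1 had a log2 fold change of 2.47 (SE 1.11, adjusted p = 0.235, edgeR) and 0.47 without that library. CDK4 had a log2 fold change of 0.19, CDK6 0.02 and CCND3 -0.13 (adjusted p = 0.292, 0.961 and 0.660, edgeR), and the groups overlapped in each. Without rhChem157S replicate 3, CCND3 was -0.35 and CDK6 -0.19.

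Of the 8 CIP/KIP targets, the kinases CDK1 and CDK2 and cyclins A, B and E, 7 were higher and 1 lower, with a median log2 fold change of 0.23 (0.11 with library size only). The groups of 2 did not overlap, with the treated libraries higher, as in 16.5% of all genes (2 also with library size only, against 7.36%). Cyclin A2 (CCNA2), which activates CDK2 and CDK1 in S phase and G2, had 33.4, 31.3 and 32.6 FPKM in Control and 43.1, 41.0 and 36.8 FPKM in treated libraries. The difference was smaller than that of CDKN1A but exceeded the spread within either group. Its log2 fold change was 0.44 (SE 0.07, adjusted p = 0.0707 with edgeR and 2.47e-04 with DESeq2). Cyclin B1 (CCNB1), the partner of CDK1 at mitosis, had 81.3, 75.7 and 76.7 FPKM in Control and 101, 85.0 and 93.7 FPKM in treated libraries, a log2 fold change of 0.39 (SE 0.09, adjusted p = 0.103 with edgeR and 0.0161 with DESeq2). CCNB2 had 0.31 and CDK1 0.18 (adjusted p = 0.193 and 0.438, edgeR), and both overlapped. CDK1 was 0.32 without rhChem157S replicate 3.

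The 13 pocket proteins and E2F factors, which act downstream of the kinases, divided into 7 lower and 6 higher, with a median of -0.04. Their groups did not overlap in 2 lower and 3 higher genes, against 16% and 16.5% of all genes. With library size only, 9 were lower and 4 higher with a median of -0.16, and the groups did not overlap in 4 lower and 1 higher, against 25.1% and 7.36% of all genes. E2F1, an activator of S-phase genes, had 49.3, 49.7 and 49.1 FPKM in Control and 37.9, 38.5 and 30.7 FPKM in treated libraries. The Control libraries were nearly equal and all treated libraries lay below them. Its log2 fold change was -0.34 (SE 0.08, adjusted p = 0.103 with edgeR and 0.0181 with DESeq2). E2F5, a repressive family member, had -0.53 and RBL1 (p107), a pocket protein, 0.41 (adjusted p = 0.155 and 0.166, edgeR), both without overlap. E2F4 had 0.29, with overlapping groups (adjusted p = 0.354, edgeR). Without rhChem157S replicate 3, E2F4 was 0.04 and RBL1 0.24.

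Of the 21 transcriptional regulators of the inhibitors, 20 were tested, 8 lower and 12 higher, with a median of 0.06 (-0.06 with library size only). TP63 was not tested, with at most 1 count in a library. MYC, which represses CDKN1A and CDKN2B through ZBTB17 (MIZ1), had 24.7, 20.7 and 25.6 FPKM in Control and 24.4, 31.3 and 43.2 FPKM in treated libraries. The FPKM of rhChem157S replicate 1 lay within the Control range, while on the scaled log2 CPM the groups did not overlap. The log2 fold change of MYC was 0.63 (SE 0.23, adjusted p = 0.178, edgeR), falling to 0.32 without rhChem157S replicate 3. KLF4, an activator of CDKN1A, had 1.18 with overlapping groups (adjusted p = 0.186 with edgeR and 0.0494 with DESeq2), and 0.68 without rhChem157S replicate 3. FOXO1, known to act on CDKN1B, had -0.51 without overlap, and EZH2, a Polycomb methyltransferase that silences the INK4 locus, 0.20 without overlap (adjusted p = 0.230 and 0.264, edgeR). Without rhChem157S replicate 3, FOXO1 was -0.32 and EZH2 0.12.

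The 11 genes for the degradation of CIP/KIP proteins comprised 3 lower and 8 higher, with a median of 0.16 (0.02 with library size only), and in 5 higher ones the groups did not overlap, against 16.5% of all genes (2 with library size only, against 7.36%). CDC20, an activator of the anaphase-promoting complex, had 121, 108 and 105 FPKM in Control and 144, 137 and 196 FPKM in treated libraries. All treated libraries were above all Control libraries, rhChem157S replicate 3 by the most. Its log2 fold change was 0.66 (SE 0.18, adjusted p = 0.119 with edgeR and 0.0143 with DESeq2) and 0.42 without that library. CUL4B, CUL4A and SKP1, parts of ubiquitin ligases, had 0.30, 0.34 and 0.22 (adjusted p = 0.138, 0.149 and 0.155, edgeR), and CUL4A was 0.21 without rhChem157S replicate 3. SKP2, which recognises p27 and was chosen after its values were seen, had 24.6, 24.1 and 22.5 FPKM in Control and 23.2, 16.2 and 11.4 FPKM in treated libraries, with overlapping groups and a log2 fold change of -0.37 (adjusted p = 0.302, edgeR). SKP2 was -0.64 without rhChem157S replicate 1 and -0.19 without rhChem157S replicate 3. Without rhChem157S replicate 1 edgeR called 1 gene of this list, against 6.24% of all genes. It was none of CDC20, CUL4B, CUL4A and SKP1 (adjusted p = 0.0536, 0.160, 0.0810 and 0.151, edgeR).

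**Figure D4:**
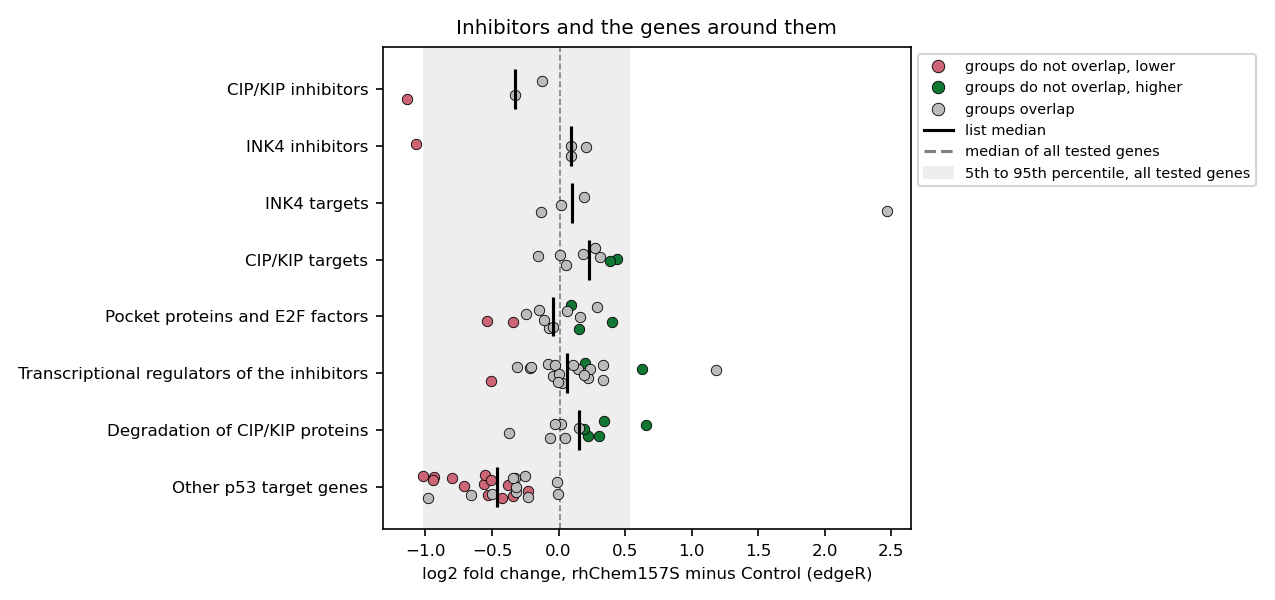
Log2 fold change (horizontal axis, edgeR, rhChem157S minus Control) of every tested gene of the inhibitor families and of the lists around them, coloured by whether the groups overlap in log2 CPM, with list medians as bars, the median of all tested genes as a dashed line and their 5th to 95th percentile shaded. The p53 target genes have a median of -0.46 with 24 of 24 at or below 0, and the other target and regulator lists have medians between -0.04 and 0.23.

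CDKN1A is one of many genes that p53 activates. The other p53 target genes in the list were on the same side of 0 as CDKN1A: of 25, 24 were tested (SPATA18 had too few counts), and 24 had a log2 fold change below 0, with a median of -0.46. In 13 of 24 the groups did not overlap with the treated libraries lower, which is 54.2% against 16% of all genes, and in 0 with the treated libraries higher. DESeq2 called 9 of 24 lower, against 5.47% of all genes. edgeR called 0 at an adjusted p of 0.05 and had 14 lower at an unadjusted p of 0.05, against 11.4% of all genes. The list was chosen with earlier results of these data known, and its genes share a regulator. These shares are therefore a description and no independent evidence. Sestrin 2 (SESN2), a stress-induced inhibitor of mTORC1, had 12.9, 14.2 and 14.4 FPKM in Control and 8.62, 7.28 and 7.28 FPKM in treated libraries. These groups were well separated, with a log2 fold change of -0.71 (SE 0.10, adjusted p = 0.0692 with edgeR and 9.62e-07 with DESeq2). ZMAT3, an RNA-binding protein, had 6.46, 8.16 and 6.09 FPKM in Control and 3.47, 3.85 and 2.60 FPKM in treated libraries, a log2 fold change of -0.94 (SE 0.16, adjusted p = 0.0707 with edgeR and 1.80e-05 with DESeq2). RRM2B, a subunit of ribonucleotide reductase, and BBC3 (PUMA), which promotes apoptosis, had -0.53 and -0.80 (adjusted p = 0.0820 and 0.0914, edgeR), also without overlap.

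The differences among these genes were not even. AEN and FAS had log2 fold changes of -0.00 and -0.01 (-0.45 and -0.19 without rhChem157S replicate 3), whereas TP53INP1 had -1.02 and GDF15 -0.98. MDM2, the ligase that degrades p53, had 16.2, 28.8 and 17.6 FPKM in Control and 12.9, 13.2 and 14.3 FPKM in treated libraries. Its groups overlapped on the scaled log2 CPM, though not in FPKM, and Control replicate 2 was again the highest, as for CDKN1A. Its log2 fold change was -0.50 (adjusted p = 0.221, edgeR), and -0.20 without Control replicate 2. AEN, FAS, TP53INP1, GDF15 and MDM2 were chosen after their values were seen.

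Single libraries moved this list. Relative to the Control mean in log2 CPM, its median was -0.19, 0.21 and -0.03 in Control replicates 1 to 3 and -0.56, -0.46 and -0.51 in the treated libraries. Control replicate 2 was above the Control mean in all but 1 of the 24 genes, while Control replicate 1 was below it in 21. All 24 genes were below the Control mean in rhChem157S replicates 1 and 2, and 19 of 24 in rhChem157S replicate 3. Without Control replicate 2, 22 of 24 remained below 0 with a median of -0.34. Without rhChem157S replicate 3, 24 of 24 were below 0 and the median was -0.53. In 20 the groups then did not overlap with the treated libraries lower, which is 83.3% against 22% of all genes in the same setting. This was the largest such share with 1 library left out. It was 75%, 54.2% and 58.3% without Control replicates 1 to 3, against 20.7%, 18% and 21.3% of all genes. Without rhChem157S replicates 1 and 2 it was 58.3% and 54.2%, against 25.4% and 19.2%, and 22 of 24 were below 0 in each. With fewer libraries, groups overlap less easily in any gene. With library size only the median was -0.59, against -0.12 for all genes.

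**Figure D5:**
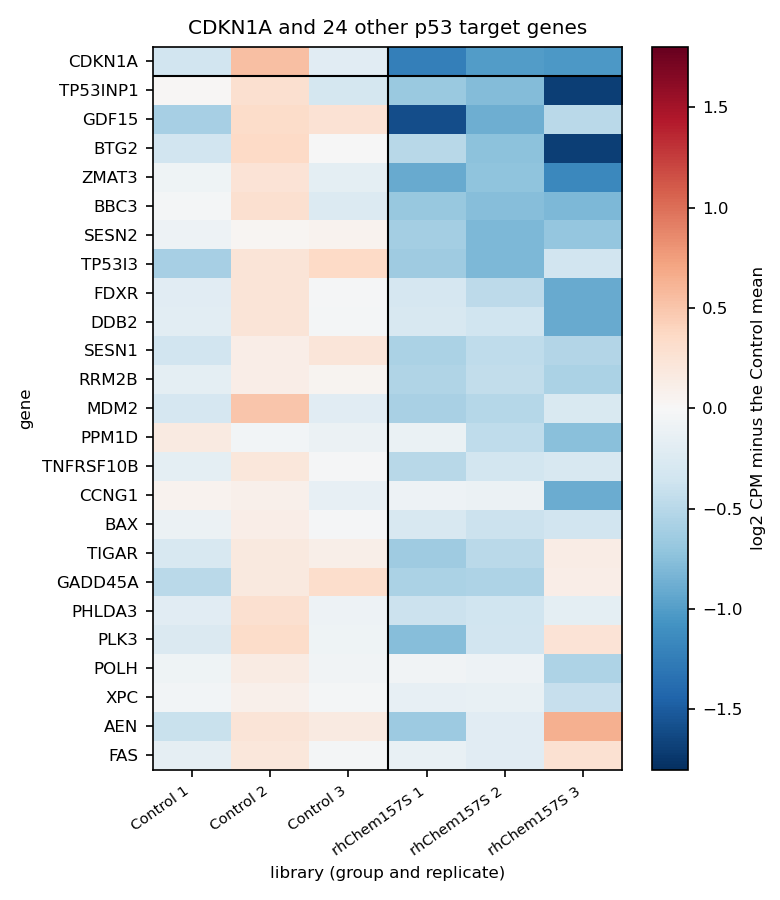
Log2 CPM minus the Control mean (colour, blue below and red above) of CDKN1A (top) and the 24 other p53 target genes (rows, ordered by their mean in treated libraries) in each library (columns). rhChem157S replicates 1 and 2 are below the Control mean in 24 of 24 genes and rhChem157S replicate 3 in 19, and Control replicate 2 is above it in all but 1.

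The genes most like CDKN1A and CDKN2B across the 6 libraries were sought among all 13311 tested genes, by the root mean square difference of log2 CPM after centring each gene. The nearest to CDKN1A were PRSS21, a membrane-anchored serine protease (difference 0.125, 23 to 113 counts), ATF3, a stress-induced transcription factor (0.162), and ZP3, a zona pellucida glycoprotein (0.209). The nearest to CDKN2B were ZBTB46, a transcription factor (0.0668, 15 to 89 counts), MSLN, the surface protein mesothelin (0.0722), and NRARP, a Notch-regulated ankyrin repeat protein (0.0747). The log2 fold changes of these genes were -1.41, -1.07 and -1.24 for PRSS21, ATF3 and ZP3 and -1.58, -1.16 and -1.23 for ZBTB46, MSLN and NRARP. They were chosen for this likeness, which is a description over 6 libraries that share a treatment, and no test was made. Before the logarithm 0.5 CPM was added, which narrows differences in genes with few counts, such as PRSS21 and ZBTB46.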

How the data were processed

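RNA of 12Z cells (3 Control and 3 rhChem157S libraries) was sequenced by the authors as paired reads of 150 bases. Per the labels and methods, the authors processed reads with fastp, and used HISAT2 for alignment to GRCh38.p13 and HTSeq for counting on genes. The authors deposited raw counts and FPKM. Dividing each count by its FPKM and library total gave the length behind the FPKM. It was within 1% of the gene's median over the libraries in 76321 of 76321 values of at least 20 counts.

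The counts were tested with edgeR 4.0.16 in R 4.3.3 (TMM factors, filterByExpr, quasi-likelihood test, Benjamini-Hochberg adjustment over 13311 genes, threshold 0.05). Intervals are 95% intervals. Groups were compared for overlap in log2 CPM, with 0.5 CPM added to each value before the logarithm. The alternatives tried were limma 3.58.1 on log2 FPKM with pseudocounts of 1 and of 0.1, DESeq2 1.42.0, other scaling and filters, a replicate block and each library left out. The list counts with library size only, and the list counts and DESeq2 with single libraries left out, were added after seeing the data. Directions follow the column labels. Scripts were tested on simulated data. Exact tests of 3 against 3 libraries cannot go below p = 0.1.

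The members and lists were chosen with earlier results of these data known. Named are all 7 members, each called list gene or otherwise up to 4 per list with the smallest p, the 3 profiles nearest to CDKN1A and CDKN2B, and genes stated as chosen afterwards. Sequences came from RefSeq (GRCh38.p14) and coordinates and exons from GENCODE release 29 on GRCh38. A few items are not reported here.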

Additional observations from a re-analysis of the deposited data

How the results depend on the processing

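DESeq2 called 2 members, 2 with a log2 fold change beyond 1, and 14 list genes, with CDKN1A at -1.14 and CDKN2B at -1.08 past its threshold, whereas edgeR called 0 of each. limma on log2(FPKM + 1) called 1 list gene. Over 21 alternatives CDKN1A ran from -1.31 to -0.81 and passed an adjusted p of 0.05 in 7 (adjusted p 2.09e-05 to 0.359), and CDKN2B ran from -1.38 to -0.92 and passed in 8 (1.07e-09 to 0.377). All 7 passes of CDKN1A came from DESeq2, with all libraries or with 1 left out, and no edgeR or limma alternative passed. All but 1 of the 8 passes of CDKN2B also came from DESeq2, and the other was edgeR without rhChem157S replicate 1. These fits share libraries and are not independent. With library size only, limma on log2(FPKM + 1) and limma on log2(FPKM + 0.1), in that order, CDKN2A was -0.034, -0.033 and -0.034, CDKN2C -0.021, -0.068 and -0.071, and CDK6 -0.13, -0.11 and -0.13. The cause of these differences was not tested.

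With each library left out, edgeR called 0 to 1 members, 0 to 1 with a log2 fold change beyond 1, and 0 to 6 list genes. The one member was CDKN2B, without rhChem157S replicate 1, where 6.24% of all genes passed. Including DESeq2 with each library left out, which was added after seeing the data, CDKN1A ran from -1.31 to -0.81, CDKN2B from -1.38 to -0.92, CDKN1B from -0.56 to -0.16, CDKN1C from -0.66 to 0.28 and CDKN2C from -0.13 to 0.32. With edgeR, CDK6 ran from -0.19 to 0.10, CDKN3 from -0.10 to 0.090 and DMRTA1 from -0.50 to 0.35.

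Over the whole table edgeR called 4 genes, DESeq2 1319, edgeR with its newer setting (legacy=FALSE) 15, library size only 5, no filter 17, at least 10 counts in every library 14, and limma 92 and 24 with the pseudocounts of 1 and 0.1. edgeR called 844 genes without rhChem157S replicate 1 and 415 without rhChem157S replicate 3. For each of the other 4 libraries left out, the count was 0 (1666 to 2190 at an unadjusted p under 0.05).

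With the replicate number as a block, edgeR called 1 gene and 0 members, CDKN1A was -1.09 and CDKN2B -1.10 (adjusted p = 0.0581 and 0.0579, edgeR), and CDK6 was -0.0061. Deviations of equally numbered libraries correlated at 0.31, 0.0074 and 0.31 across genes, and those of unequally numbered libraries at -0.37 to 0.14. The labels do not say that a number marks a shared batch, and the main test left it out. Whether the numbers mark pairs was not tested. In the block fit the SE was 0.16 for CDKN1A, 0.14 for CDKN2B and 0.11 for CDKN1B, against 0.23, 0.24 and 0.19 without it. For CDKN2A it was 0.090 against 0.085. CDKN1B differed by -0.12, -0.38 and -0.55 log2 CPM between equally numbered libraries.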

Other observations

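The genes flanking the INK4 locus on chromosome 9 were MTAP, a methionine salvage enzyme, and DMRTA1. MTAP had 5.24, 5.75 and 5.69 FPKM in Control and 5.25, 6.40 and 6.65 FPKM in treated libraries, with overlapping groups and a log2 fold change of 0.27 (adjusted p = 0.276, edgeR), or 0.15 without rhChem157S replicate 3. DMRTA1 had 18 to 52 counts per library and a log2 fold change of -0.24 (adjusted p = 0.795, edgeR). CDKN3, a phosphatase of CDK2, and CDKN2AIP, a partner of p14ARF, carry similar names but belong to neither family, and had log2 fold changes of -0.0042 and 0.16 with overlapping groups (adjusted p = 0.986 and 0.579, edgeR).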
